A study of Mus musculus with 9 samples.

Results

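The clustered histone genes are the genes of the epidermal count table whose symbols start with Hist1h to Hist4h, and 70 of the 52550 genes in the table met this rule. By symbol, 6 of them encode H1, 20 H2A, 19 H2B, 12 H3 and 13 H4, and 56 lie in the Hist1 cluster on chromosome 13, 10 in Hist2 on chromosome 3, 3 in Hist3 on chromosome 11 and 1, Hist4h4, on chromosome 6. Transcriptomes of epidermal ear sheets were compared between 3 groups of 3 libraries. All mice were wild-type C57BL/6 males (C57BL/6J in the methods) of 8 weeks. The control group (VAS + H2O) had Vaseline on the ears for 5 days and water by gavage for 10 days. The model group (IMQ + H2O) had imiquimod cream, which carries an agonist of Toll-like receptor 7 and induces psoriasis-like dermatitis, in place of Vaseline. The third group (IMQ + XYF) had imiquimod and the herbal decoction Xiao-Yin-Fang (XYF, 23.3 mg/g) in place of water. Whether each library pooled the ears of a pair of mice is not clear from the methods, and p-values measure only the spread between these libraries.

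Clustered histone genes supply the histones that package newly replicated DNA. Each nucleosome holds a pair of each core histone (H2A, H2B, H3 and H4), and H1 binds the linker DNA between nucleosomes. Most of these genes are short, have no intron and are transcribed in S phase, and their mRNAs end in a conserved stem-loop instead of a poly(A) tail. The stem-loop binding protein SLBP and the U7 snRNP direct the cut that follows it. Some clustered genes also have a downstream poly(A) signal and yield polyadenylated mRNA, mainly in cells that are not replicating DNA. A library that selects poly(A) RNA, such as the TruSeq kit named in the methods, therefore samples this family only in part, and a change in its counts can be a change in transcription, in stability or in the share of polyadenylated mRNA, which cannot be told apart here.

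The stem-loop is shown for 8 members on which the results turn, because it sets the 3′ end that poly(A) selection misses. It was searched on the sense strand of the GENCODE M21 transcripts (GRCm38) as a stem closed by GG and CC with CTT and AG at the base of the loop and the other positions left free or T. Capitals mark the matched stem-loop, and the coordinates are those of the capitals.
Hist1h1c: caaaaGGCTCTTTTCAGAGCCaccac
Hist3h2a: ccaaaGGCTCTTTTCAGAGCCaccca
Hist1h2ag: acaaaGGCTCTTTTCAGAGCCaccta
Hist1h2bj: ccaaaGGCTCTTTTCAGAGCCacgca
Hist2h2aa1: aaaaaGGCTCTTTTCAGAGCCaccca
Hist1h3c: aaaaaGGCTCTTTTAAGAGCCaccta
Hist1h4i: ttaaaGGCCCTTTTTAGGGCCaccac
Hist1h4m: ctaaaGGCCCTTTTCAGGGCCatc
These matches lie at chr13:23739512-23739527 (+) for Hist1h1c, chr11:58955172-58955187 (+) for Hist3h2a and chr13:22042483-22042498 (-) for Hist1h2ag. They lie at chr13:22043638-22043653 (+) for Hist1h2bj, chr3:96246032-96246047 (+) for Hist2h2aa1 and chr13:23745047-23745062 (-) for Hist1h3c. For Hist1h4i and Hist1h4m they lie at chr13:22040966-22040981 (-) and chr13:21812129-21812144 (+). The printed members of H1, H2A and H2B share 1 sequence, Hist1h3c differs in the loop, and both H4 genes have another stem. Of the 70 members, 46 (65.7%) held a match, against 118 of 21884 other protein-coding genes (0.539%), and 26 members held the sequence printed for Hist1h1c.

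The annotated ends divided the members into 3 sets. A poly(A) signal (AATAAA, or ATTAAA, starting 10 to 40 bases before an annotated transcript end) was found in 16 members, 33 had the stem-loop and no such signal, and 21 had neither, among them gene models that stop near the coding sequence. Hist1h1c, Hist3h2a, Hist2h2be, Hist1h4i and Hist2h3c1 belonged to the first set. In Hist1h1c the model ran 840 bases past the stem-loop and in Hist3h2a 1643 bases. In Hist1h2bj it ended 23 bases past it and in Hist2h2aa1 35 bases. Hist1h2bc, a gene of 2 exons, had neither feature in its single model, and part of its shared windows is repeat sequence found in genes that encode no histone.

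Near-identical copies limited which reads could be assigned to which member. A median of 54.5% of the 50-base windows of a member's transcripts also occurred in another gene, on either strand, where a gene overlapping the member counts as another gene. In 36 members more than 50% of the windows were shared. In 5 members, Hist2h2aa1, Hist2h2aa2, Hist2h3c1, Hist2h3b and Hist2h2bb, every window was shared, and in 4, Hist1h1a, Hist1h1b, Hist1h1t and Hist2h2be, none was. Coding sequences were identical within 4 pairs of members, Hist1h2ao with Hist1h2ap, Hist1h2bq with Hist1h2br, Hist1h4m with Hist1h4n, and Hist2h2aa1 with Hist2h2aa2. Hist1h2ao and Hist1h2ap also had the same count in each of the 9 libraries. The counts of such members are uncertain one by one.

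Few reads came from the family. The 70 members had 27036 counts in all 9 libraries together, which is 0.00637% to 0.00905% of a library. These libraries held 30298275 to 64771160 counts each, and a floor of 3 counts stood at 0.0471 to 0.104 CPM (counts scaled to 1000000 per library after TMM normalization), which covers counting error only. Hist1h2aa and Hist2h2aa2 had no count in any library, 11 members had at least 10 counts in every library and 5 had at most 3 in each. Hist1h1t, the testis H1, had 2 counts in total, and the testis gene Hist1h2ba had 18. Hist1h1c, Hist1h2bc, Hist3h2a and Hist2h2be held 72.6% of the family's counts over all libraries and 64.2% to 78.5% in single libraries.

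**Figure D1:**
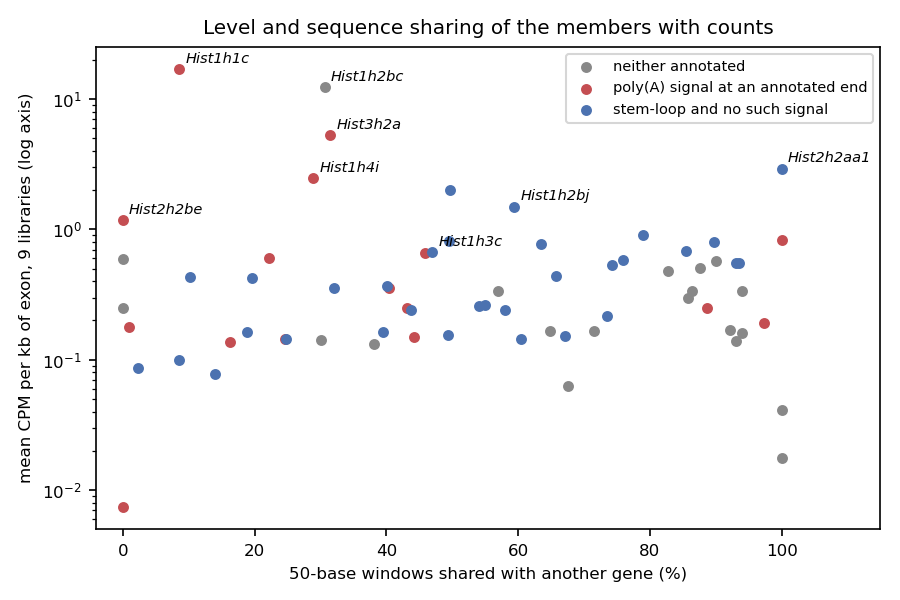
Mean CPM per kb of exon over the 9 libraries (log axis) against the share of 50-base windows that a member shares with another gene, for the 68 members with counts, coloured by the features at the annotated 3′ end. Hist1h1c, Hist1h2bc and Hist3h2a stood highest, at 17.0, 12.4 and 5.26 CPM per kb, and the median over all 70 members was 0.282.

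Levels of different members were compared per kb of exon. Hist1h1c, which encodes the H1 subtype H1.2, was highest with 17.0 CPM per kb, at the 90.3rd percentile of all genes with counts. Hist1h2bc followed with 12.4 and Hist3h2a with 5.26. The 16 members with a poly(A) signal had a median of 0.302 CPM per kb and 62.4% of the family's counts. The 33 members with the stem-loop alone had a median of 0.368 and 16.0% of the counts, so the larger share of the first set came from its few highest members. Within H3 the highest were Hist2h3c1 with 0.831, Hist1h3a with 0.818 and Hist2h3c2 with 0.776 CPM per kb. Within H4 they were Hist1h4i with 2.46, Hist1h4m with 0.797 and Hist1h4n with 0.682.

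Some libraries held RNA of other cell types. Markers of basal keratinocytes (8 of 8 genes with counts) summed to 19571 to 26241 CPM and those of suprabasal keratinocytes (8 of 8) to 34149 to 55603 CPM over the 9 libraries. Dermal fibroblast markers (10 genes, none at 0 throughout) summed to 134, 818 and 169 CPM in VAS + H2O, 66.0 to 73.1 in IMQ + H2O and 111 to 277 in IMQ + XYF. Cartilage markers (11 genes, Matn1 at 0) summed to 221 to 525, 44.7 to 91.8 and 154 to 224 CPM in the same order, again with the highest value in replicate 2 of VAS + H2O. Skeletal muscle markers reached 284 CPM in that library, against 7.51 and 9.63 in the other VAS + H2O libraries, and 77.5 CPM in replicate 2 of IMQ + XYF, against 20.9 and 8.20 in the others of that group. Markers of dendritic epidermal T cells (6 genes) summed to 66.7 to 75.7 CPM in VAS + H2O and 34.2 to 53.4 CPM in the IMQ libraries. Neutrophil markers (8 genes) summed to 20.6 to 25.2 CPM in VAS + H2O, to 282, 363 and 2188 CPM in IMQ + H2O and to 594 to 922 CPM in IMQ + XYF. That list includes the alarmin genes S100a8 and S100a9, so its sum need not come from neutrophils alone. Only 4 of its 8 genes were tested in IMQ + H2O against VAS + H2O. Replicate 2 of VAS + H2O, replicate 3 of IMQ + H2O and, for muscle markers, replicate 2 of IMQ + XYF thus stood apart, and the calls are given without them too. Replicate 3 of VAS + H2O was highest of its group for erythroid markers (45.0 CPM, against 8.92 and 15.8) and hair follicle markers (32.9 CPM, against 19.0 and 16.8). Without it, Hist1h2bj, Hist1h3c and Hist2h2aa1 were called in IMQ + H2O, and the same genes and Hist1h2ag in IMQ + XYF, each against VAS + H2O (edgeR). In such bulk samples fewer cells of a type and less RNA per cell cannot be told apart.

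The summed level of the family was 85.5, 84.0 and 68.4 CPM in VAS + H2O, 83.0, 77.8 and 64.6 CPM in IMQ + H2O and 74.6, 77.9 and 67.6 CPM in IMQ + XYF. The groups overlapped, with means of 79.3 ± 9.47, 75.1 ± 9.46 and 73.3 ± 5.26 CPM (SD, n = 3 each). H1 was the largest class in most libraries, with 19.99 to 37.1 CPM, nearly all of it Hist1h1c. H2A summed to 18.8 ± 2.59 CPM in VAS + H2O and to 13.99 ± 1.42 and 13.6 ± 0.569 CPM in the IMQ groups (SD, n = 3 each), and the VAS + H2O libraries were all higher. Hist2h2aa1 alone made up this difference, and without it H2A summed to 13.6 ± 2.20, 13.99 ± 1.42 and 13.6 ± 0.569 CPM (SD, n = 3 each) with overlap. H3 summed to 2.93 ± 1.40, 5.41 ± 0.864 and 4.62 ± 0.377 CPM in the same order (SD, n = 3 each), with an overlap through replicate 1 of VAS + H2O at 4.55 CPM. H4 summed to 3.73 ± 0.630, 5.39 ± 0.876 and 5.22 ± 0.412 CPM (SD, n = 3 each), and VAS + H2O did not overlap with the other groups. By cluster, Hist1 summed to 54.5 ± 7.18, 57.0 ± 6.74 and 57.3 ± 4.29 CPM and Hist2 to 12.1 ± 2.35, 6.07 ± 1.19 and 4.81 ± 0.347 CPM (SD, n = 3 each), and VAS + H2O stood above both other groups without overlap for Hist2 and for the single Hist4 gene, but not for Hist1 or Hist3. Without Hist2h2aa1, Hist2 summed to 8.71, 6.43 and 5.65 CPM in VAS + H2O and to 7.43, 5.59 and 5.18 CPM in IMQ + H2O, which overlapped, and to 4.41, 4.93 and 5.07 CPM in IMQ + XYF.

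**Figure D2:**
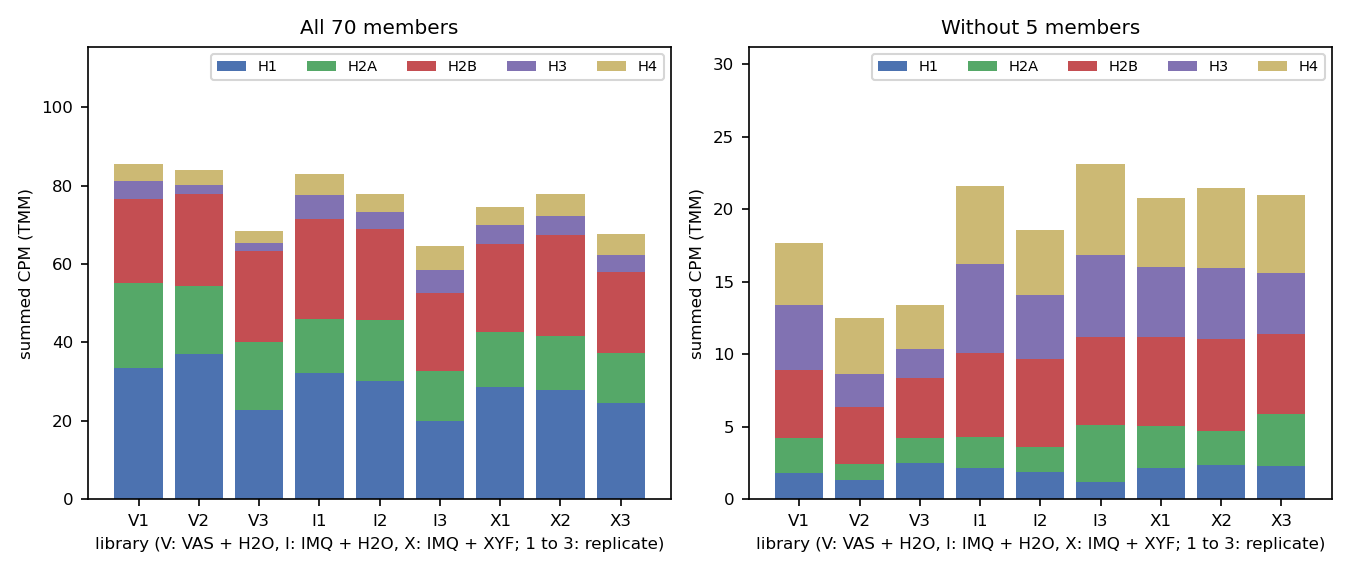
Summed CPM of the members per library, stacked by histone class, for all 70 members (left) and without Hist1h1c, Hist1h2bc, Hist3h2a, Hist2h2be and Hist2h2aa1 (right). The left sums lie between 64.6 and 85.5 CPM in all groups, and the right sums are 12.5 to 17.7 CPM in VAS + H2O and 18.6 to 23.1 CPM in the IMQ groups.

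The sum of the remaining members depended on few genes. After the 4 members with most counts and Hist2h2aa1 were left out, a choice made after their values were seen and so given without a test, the other 65 members summed to 17.7, 12.5 and 13.4 CPM in VAS + H2O. They summed to 21.6, 18.6 and 23.1 CPM in IMQ + H2O and to 20.8, 21.5 and 20.97 CPM in IMQ + XYF. All IMQ libraries were higher than the VAS + H2O libraries. With Hist2h2aa1 kept in, the sums were 17.5 to 23.4 CPM in VAS + H2O, 18.6 to 23.1 CPM in IMQ + H2O and 20.8 to 21.5 CPM in IMQ + XYF, and the groups overlapped.

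The first comparison asked what imiquimod changed in the epidermis. Between IMQ + H2O and VAS + H2O, 27 of the 70 members passed the filter on low counts, and 4 of them were called. A gene was called when its Benjamini-Hochberg adjusted p in edgeR's quasi-likelihood test did not exceed 0.05 and its log2 fold change reached 1 in either direction. This rule called 7.68% of all 18009 genes tested, 3.64% higher and 4.04% lower in IMQ + H2O. Hist1h2bj, Hist1h3c and Hist1h4i rose and Hist2h2aa1 fell. The same 4 were called by DESeq2, which called 8.88% of all genes it tested, and the same 4 passed the adjusted p alone, which 22.1% of all genes did (12.7% higher, 9.41% lower). Hist1h2bj, Hist1h3c, Hist2h2aa1 and the uncalled Hist2h4 passed the filter only through the group in which they were higher. The calls among them, and the share of called members, are therefore not read as results about the family. The median log2 fold change of the 27 members was 0.12, against -0.03 over all genes tested, with 14 members above 0 and 13 below, where 47.6% of all genes lay above 0. The groups did not overlap for 8 of the 27 members, 4 higher and 4 lower, against 45% of all genes tested (23.4% higher, 21.6% lower).

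Hist1h2bj, which encodes an H2B, was counted 9, 2 and 5 times under VAS + H2O, 19, 36 and 65 times under IMQ + H2O, and 88, 25 and 21 times under IMQ + XYF. All 6 IMQ libraries were higher than all VAS + H2O libraries, and the IMQ groups overlapped. In CPM the means were 0.131 ± 0.0656, 1.03 ± 0.432 and 0.917 ± 0.412 (SD, n = 3 each). Hist1h2bj rose by a log2 fold change of 2.90 ± 0.52 (SE, adjusted p = 0.0141, edgeR) in IMQ + H2O. It passed the filter only through IMQ + H2O, where it was higher, so its call is no result and its values are given as description. The call held without each library in turn, with log2 fold changes of 2.53 to 3.28. Other H2B genes of the Hist1 cluster share 59.4% of its windows.

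Hist1h3c, which encodes an H3, had 2, 1 and 4 counts in VAS + H2O, 9, 21 and 40 in IMQ + H2O and 55, 17 and 16 in IMQ + XYF. The IMQ libraries were again all higher, and 2 of the 3 VAS + H2O counts lay under the floor of 3. It rose by a log2 fold change of 3.21 ± 0.66 (SE, adjusted p = 0.0194, edgeR) in IMQ + H2O. Hist1h3c too passed the filter only through IMQ + H2O, where it was higher, so its call is no result. The adjusted p was 0.0726 without replicate 1 of VAS + H2O, 0.0683 without its replicate 2 and 0.0608 without replicate 3 of IMQ + H2O, all by edgeR.

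Hist1h4i, an H4 gene with a poly(A) signal, was the called member with the most counts. Its level was 1.10, 1.18 and 0.803 CPM in VAS + H2O, 2.38, 1.74 and 2.87 CPM in IMQ + H2O and 1.77, 2.03 and 2.22 CPM in IMQ + XYF. The VAS + H2O libraries were lowest without overlap. Hist1h4i rose by a log2 fold change of 1.16 ± 0.29 (SE, adjusted p = 0.0327, edgeR) in IMQ + H2O. The call was lost when replicate 1, 2 or 3 of VAS + H2O or replicate 1 or 3 of IMQ + H2O was left out, with adjusted p of 0.0680 to 0.0949 and log2 fold changes of 0.98 to 1.28 (edgeR). Of the 4 calls, 2 were left without replicate 2 of VAS + H2O, and 2 without replicate 3 of IMQ + H2O, in both cases Hist1h2bj and Hist2h2aa1.

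**Figure D3:**
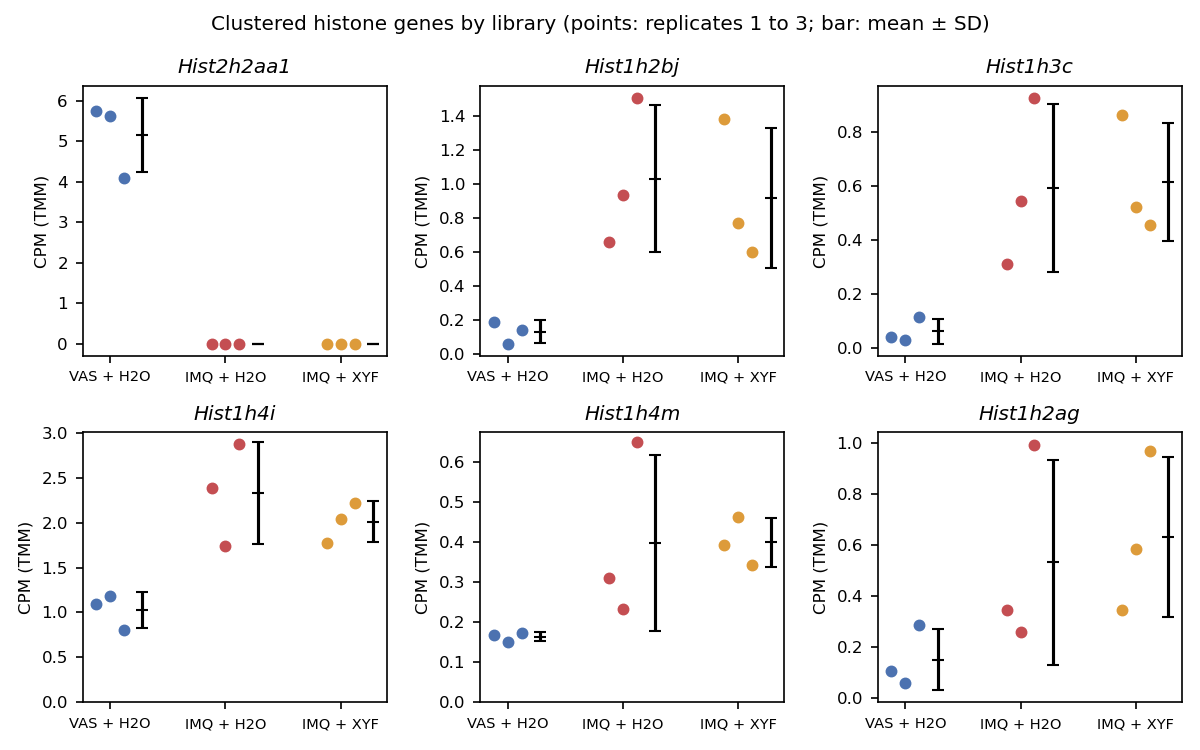
CPM of the 5 called members and of Hist1h2ag in each library (points, in the order of the replicate numbers) with the mean and SD of the group beside them (n = 3). Hist2h2aa1 is at 0 in all 6 IMQ libraries, and Hist1h2bj, Hist1h3c and Hist1h4i are higher in every IMQ library than in any VAS + H2O library.

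Hist1h4i, Hist1h2ag and Hist1h2bj are neighbours within 3041 bases of chromosome 13. Hist1h4i lies at chr13:22040636-22041362 (-), Hist1h2ag at chr13:22042460-22042944 (-) and Hist1h2bj at chr13:22043214-22043676 (+). The last pair, an H2A and an H2B gene, diverge from starts 269 bases apart. Hist1h2ag had 5, 2 and 10 counts in VAS + H2O, 10, 10 and 43 in IMQ + H2O and 22, 19 and 34 in IMQ + XYF. Its IMQ + H2O and VAS + H2O libraries overlapped, since replicate 2 of IMQ + H2O stood at 0.260 CPM and replicate 3 of VAS + H2O at 0.287 CPM. Its log2 fold change in IMQ + H2O was 1.82 ± 0.75 (SE, adjusted p = 0.125, edgeR).

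The 200 bases before the RefSeq start (GRCm38.p6) are shown for the called genes of this neighbourhood, 5′ to 3′ on the strand of each gene, with CCAAT and TATAAA, and their reverse complements, in capitals.
Hist1h2bj: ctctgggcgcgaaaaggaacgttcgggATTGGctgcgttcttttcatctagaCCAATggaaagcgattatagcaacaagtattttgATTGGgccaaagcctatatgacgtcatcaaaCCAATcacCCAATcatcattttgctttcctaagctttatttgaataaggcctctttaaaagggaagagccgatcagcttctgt
Hist1h4i: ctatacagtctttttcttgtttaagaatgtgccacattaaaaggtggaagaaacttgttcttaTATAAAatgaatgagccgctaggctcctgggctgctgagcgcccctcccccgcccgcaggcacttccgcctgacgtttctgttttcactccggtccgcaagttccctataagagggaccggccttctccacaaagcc
The first lies at chr13:22042998-22043197 (+) and the second at chr13:22041363-22041562 (-). The Hist1h2bj window held 5 matches of CCAAT, the letters that the factor NF-Y is known to bind, and the Hist1h4i window held none of these and 1 TATAAA. Of the 61 members with a RefSeq promoter, 82.0% held CCAAT on either strand, against 29.9% of 26963 other promoters, and among H4 genes it was 3 of 12. The octamer ATTTGCAT stood in 13 of the 61 (21.3%), all of them H2A or H2B genes, against 1.346% of the other promoters. TATAAA stood in 41.0%, against 10.5%. Windows of 200 bases were used throughout, on both strands, and a base could belong to matches of more than 1 motif. The windows of divergent H2A and H2B genes can overlap, as for Hist1h2ae and Hist1h2bg. In such pairs 1 site can be counted for both genes, so these shares are not over independent promoters.

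Hist2h2aa1, an H2A gene of the Hist2 cluster at chr3:96245497-96246082 (+), was detected under VAS + H2O alone. It had 271, 185 and 143 counts there and 0 in each of the 6 IMQ libraries. Against a floor of 3 counts over the group, its counts were at least 189.8-fold lower in IMQ + H2O. They were at least 225-fold lower in IMQ + XYF. These bounds cover counting error only and not the assignment of reads, since every window of the gene is shared. Hist2h2aa1 passed the filter only through VAS + H2O, where it was higher, so its calls are no result (adjusted p = 0.00353 and 0.000801, edgeR). Its identical copy Hist2h2aa2, at chr3:96239749-96240276 (-), had 0 counts in all 9 libraries. Besides Hist2h2aa1, 1 gene of the 52550 had 0 counts throughout IMQ + H2O and at least 30 in every control library, namely Gm20634, an overlapping transcript on the same strand.

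The genes around it moved in different ways. Gm20634 spans Hist2h2aa1 and the H3 gene Hist2h3c1, and had 159, 155 and 173 counts in VAS + H2O and 0 in each IMQ library. Hist2h3c1 lies wholly within Gm20634 at chr3:96246685-96248509 (+) and moved the other way in part. It had 97, 6 and 6 counts in VAS + H2O, 72, 79 and 94 in IMQ + H2O and 78, 64 and 47 in IMQ + XYF, so that replicate 1 of VAS + H2O (2.051 CPM) stood just under the lowest IMQ + H2O library (2.053 CPM). Its log2 fold change in IMQ + H2O was 1.42 ± 0.87 (SE, adjusted p = 0.278, edgeR), and 3.62 with adjusted p = 0.0161 without that replicate. The antisense transcripts Gm20632 and Gm20633, opposite to Hist2h2aa2 and Hist2h2aa1, had 764, 440 and 372 and 322, 181 and 179 counts in VAS + H2O. In IMQ + H2O they had 203, 278 and 209 and 102, 73 and 43 counts. The labels call the libraries strand-specific, and the strand setting of the counting is not given in the sources used here, so reads of these genes and of their antisense partners cannot be told apart.

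Summing the block gave a smaller difference. Hist2h2aa1, Hist2h2aa2, Hist2h3c1 and Gm20634 together had 11.1, 10.5 and 9.23 CPM in VAS + H2O, 2.49, 2.05 and 2.17 CPM in IMQ + H2O and 1.225, 1.97 and 1.34 CPM in IMQ + XYF. Their sum was lower by 2.22 ± 0.17 on the log2 scale in IMQ + H2O (SE of the edgeR fit). All 7 genes from Hist2h3c2 to Hist2h3c1, antisense transcripts included, had 35.2, 30.1 and 26.1 CPM in VAS + H2O and 14.4, 11.6 and 8.65 CPM in IMQ + H2O. That sum was lower by 1.41 ± 0.21 on the log2 scale (SE of the edgeR fit), or 2.67-fold. The VAS + H2O libraries were higher without overlap under each sum. These sums were chosen after the counts were seen and hold Hist2h2aa1 and Gm20634, which stood at 0 in every IMQ library. They are therefore given without a test. The part that the assignment of reads among overlapping genes had in the single-gene values was not tested.

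**Figure D4:**
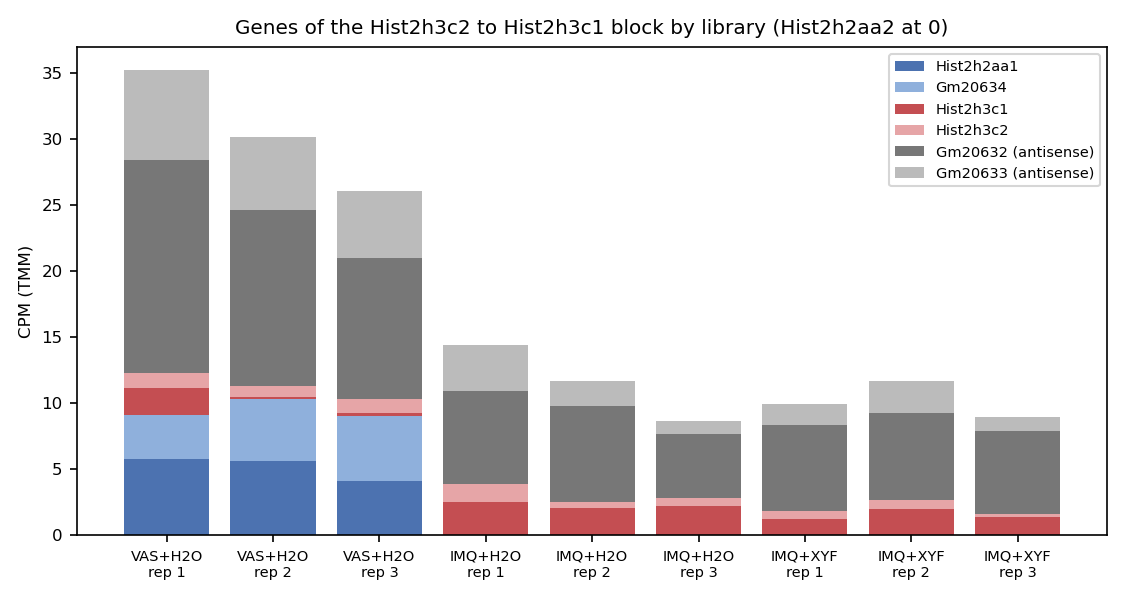
CPM of the genes of the chromosome 3 block from Hist2h3c2 to Hist2h3c1, stacked per library. Hist2h2aa1 and Gm20634 are present in the 3 VAS + H2O libraries alone, and the total of the block is 26.1 to 35.2 CPM there and 8.65 to 14.4 CPM in the 6 IMQ libraries.

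The most abundant members did not pass the test. Hist1h1c was at 31.6, 35.8 and 20.4 CPM in VAS + H2O, 30.05, 28.2 and 18.8 CPM in IMQ + H2O and 26.6, 25.5 and 22.2 CPM in IMQ + XYF, with overlap between all groups. Its log2 fold change was -0.21 ± 0.26 in IMQ + H2O (SE, adjusted p = 0.594, edgeR). Hist1h2bc was at 12.3, 14.9 and 15.5, then 16.5, 14.5 and 11.9, then 13.9, 17.5 and 12.1 CPM in the same order, with a log2 fold change of -0.01 ± 0.16 (SE). Hist3h2a was at 13.6, 10.6 and 11.4, then 11.6, 13.8 and 8.82, then 11.1, 11.3 and 9.37 CPM, with a log2 fold change of -0.07 ± 0.19 (SE). Trim17 overlaps Hist3h2a on the same strand, so part of these reads is uncertain. With standard errors of 0.16 to 0.26, these 3 genes were measured more closely than the called ones.

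Hist2h2be, an H2B gene with a poly(A) signal and no window shared with another gene, was 4.46, 4.61 and 3.64 CPM in VAS + H2O, 3.14, 2.76 and 2.01 CPM in IMQ + H2O and 2.21, 2.07 and 2.93 CPM in IMQ + XYF. It is named here for its values, outside the rule for named genes. The VAS + H2O libraries were higher without overlap. Its log2 fold change was -0.70 ± 0.23 in IMQ + H2O (SE, adjusted p = 0.0693) and -0.82 ± 0.21 in IMQ + XYF against VAS + H2O (SE, adjusted p = 0.0267, both edgeR), where it passed the adjusted p but not the fold.

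Other members named for their level had wide errors. Hist1h1b, an H1 gene, had log2 fold changes of -0.16 ± 0.64 in IMQ + H2O and 0.14 ± 0.61 in IMQ + XYF (SE, against VAS + H2O). Hist1h1e had 13, 23 and 27 counts in VAS + H2O, 29, 29 and 0 in IMQ + H2O and 61, 23 and 34 in IMQ + XYF, so that 1 library listed no count, and its exon overlaps that of Hist1h2be. Hist1h2bg, Hist1h3a, Hist1h4n and Hist2h3c2 had log2 fold changes of 0.12, 0.63, 0.63 and -0.30 in IMQ + H2O, with standard errors of 0.35 to 0.89. Of the 70 members, 35 were tested in no comparison because too few reads were counted.

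**Figure D5:**
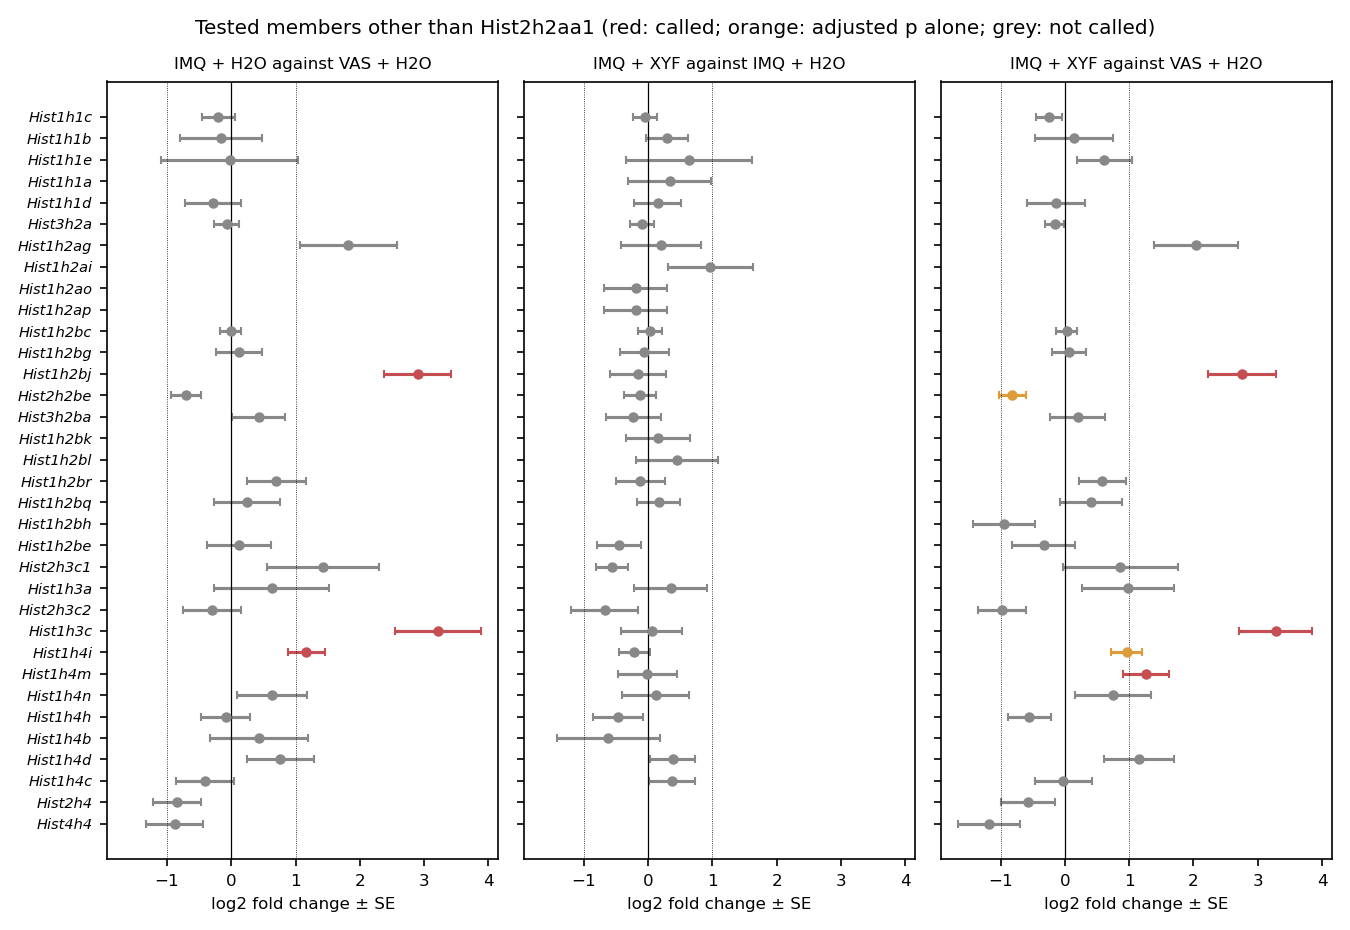
Log2 fold change ± SE (edgeR) of each tested member in the 3 comparisons, with dotted lines at an absolute value of 1. Hist2h2aa1 is left out because its fitted value rests on groups at 0 and is no bound. In the middle panel, IMQ + XYF against IMQ + H2O, all 31 values lie between -0.67 and 0.97 and none is called.

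The second comparison asked what XYF changed under imiquimod. Between IMQ + XYF and IMQ + H2O, 31 members were tested and 0 were called by edgeR, where 0.0281% of all 17793 genes tested (5 genes, all higher) were called. At an unadjusted p under 0.05 there were also 0 members, where 5.43% of all genes passed (3.84% higher, 1.58% lower), too few for a count of 0 to set the members apart. DESeq2 called 0 of the 21 members for which it gave an adjusted p, against 0.757% of all genes. The smallest adjusted p was 0.942, for Hist2h3c1, whose log2 fold change was -0.56 ± 0.25 (SE, edgeR). The log2 fold changes ran from -0.67 (Hist2h3c2) to 0.97 (Hist1h2ai), with 15 above 0 and 16 below and a median of -0.01, against 0.00058 over all genes, of which 50.1% lay above 0. The groups did not overlap for 2 members, Hist1h4h and Hist2h3c1, both lower in IMQ + XYF, against 10.7% of all genes tested (5.99% higher, 4.68% lower). Hist1h4h passed the filter only through IMQ + H2O, where it was higher, so its place in this count is no result. Hist1h2bj, Hist1h3c and Hist1h4i differed by -0.15 ± 0.44, 0.06 ± 0.47 and -0.21 ± 0.24 on the log2 scale (SE). With such errors, small differences were not detectable at this depth, and the missing calls do not show that these genes were alike in both groups. Hist1h1c, Hist1h2bc and Hist3h2a differed by -0.05 ± 0.19, 0.03 ± 0.18 and -0.10 ± 0.18 (SE).

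The third comparison set both treatments together against the control. Between IMQ + XYF and VAS + H2O, 28 members were tested and 4 were called by edgeR, where 7.64% of 17954 genes were called (4.58% higher, 3.05% lower). At the adjusted p alone 6 members passed, against 28.7% of all genes (16.7% higher, 12% lower). The groups did not overlap for 10 members, 5 higher and 5 lower, against 47.5% of all genes (25.1% higher, 22.4% lower), and 16 members lay above 0, against 46.9%. This comparison shares its VAS + H2O libraries with the first and its IMQ + XYF libraries with the second, so the values are given side by side and are not independent. Hist1h2bj rose by a log2 fold change of 2.75 ± 0.53 (SE, adjusted p = 0.0100) and Hist1h3c by 3.28 ± 0.57 (SE, adjusted p = 0.00721), both by edgeR. Hist1h4m, an H4 gene with 8, 5 and 6 counts in VAS + H2O and 25, 15 and 12 in IMQ + XYF, rose by 1.26 ± 0.36 (SE, adjusted p = 0.0394, edgeR). Its IMQ + H2O libraries had 9, 9 and 28 counts and it was not tested in the first comparison. The call of Hist1h4m was lost without any 1 of the 6 libraries, with adjusted p of 0.0899 to 0.124, with DESeq2 (adjusted p = 0.179), and when its counts were added to those of its copy Hist1h4n (log2 fold change 1.001, adjusted p = 0.0746, edgeR). Hist2h2aa1 fell as described. Hist1h4i had a log2 fold change of 0.96 ± 0.24 (SE, adjusted p = 0.0253, edgeR), past the adjusted p but not the fold, and was called without replicate 2 of VAS + H2O (log2 fold change 1.07, adjusted p = 0.0417, edgeR) and without replicate 1 of IMQ + XYF (1.07, adjusted p = 0.0498, edgeR). Without replicate 2 of VAS + H2O the calls were Hist1h2bj, Hist1h3c, Hist1h4i and Hist2h2aa1, and without replicate 2 of IMQ + XYF they were Hist1h2bj, Hist1h3c and Hist2h2aa1. Hist2h3c1 had 0.86 ± 0.89 (SE, adjusted p = 0.505), and 3.07 with adjusted p = 0.00907 without replicate 1 of VAS + H2O (both edgeR). Hist1h2ag had 2.04 ± 0.65 (SE, adjusted p = 0.0576, edgeR) and was called by DESeq2 (adjusted p = 0.0446), which called 4 of 37 members and 7.97% of all genes. Hist1h2bj, Hist1h3c, Hist1h4m, Hist2h2aa1 and the uncalled Hist1h4h and Hist4h4 passed the filter only through the group in which they were higher. The 4 calls of this comparison are therefore no result, and their values describe the counts only.

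Hist1h2ao and Hist1h2ap, a pair of H2A genes with identical coding sequences, are named after their values were seen. Each had 8, 3 and 4 counts in VAS + H2O, 6, 11 and 25 in IMQ + H2O and 18, 8 and 15 in IMQ + XYF. Whether the same reads were counted for both was not tested, and neither gene passed the filter in a comparison with VAS + H2O. Over the whole table, 12 of 19133 genes with counts in all libraries had the same 9 counts as another gene, at 50 counts or more in sum.

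Genes that accompany histone synthesis were read beside the family. Of 52 genes of DNA replication and S phase, imiquimod with water gave 21 higher calls and 0 lower (edgeR, with 45 and 0 at an unadjusted p under 0.05 and 22 and 0 calls by DESeq2), at a median log2 fold change of 0.91. Of all genes tested in this comparison, edgeR called 3.64% higher and 4.04% lower, and 37.9% had an unadjusted p under 0.05 (19.2% higher, 18.7% lower). Their summed level was 1273 to 1932 CPM in VAS + H2O, 2710 to 3243 CPM in IMQ + H2O and 2921 to 3419 CPM in IMQ + XYF. Prim2, a subunit of primase, Pold2, a subunit of DNA polymerase delta, and Mcm7, a subunit of the replicative helicase, rose by log2 fold changes of 1.10, 1.08 and 1.03 (adjusted p = 0.00504 to 0.00864, edgeR). In IMQ + XYF against VAS + H2O 28 of the 52 were called higher, against 4.58% of all genes tested. In IMQ + XYF against IMQ + H2O 0 were called by edgeR or DESeq2. There 0 had an unadjusted p under 0.05, against 5.43% of all genes tested. The sums of this list, of the neutrophil markers and of the members left after the 5 exclusions were all higher in the IMQ libraries, and their part in each other was not tested.

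Of 22 histone chaperone genes, 4 were called higher and 0 lower in IMQ + H2O (edgeR, with 12 and 0 at an unadjusted p under 0.05 and 5 and 0 calls by DESeq2), and 11 passed the adjusted p upward. Over all genes tested, edgeR called 3.64% higher, and 12.7% passed the adjusted p upward and 9.41% downward. At an unadjusted p under 0.05, 19.2% of all genes were higher and 18.7% lower. Nap1l1, a carrier of H2A and H2B, Npm1, nucleophosmin, and Chaf1b, a subunit of chromatin assembly factor 1, rose by log2 fold changes of 1.10, 1.03 and 1.08 (adjusted p = 0.00723 to 0.0123, edgeR). Nasp, a carrier of H3 and H4, passed the adjusted p alone with 0.70 (adjusted p = 0.00876, edgeR). Of the histone mRNA processing genes, 26 of 27 listed were tested and 0 were called in either direction by edgeR, while 10 passed the adjusted p upward and 1 downward. The Sm proteins Snrpd3, Snrpe and Snrpf, which U7 shares with other snRNPs, and Eri1, an exonuclease that trims histone mRNA ends, had log2 fold changes of 0.74, 0.73, 0.71 and 0.56 (adjusted p = 0.00796 to 0.0123, edgeR). DESeq2 called 0 of them too, and 15 were higher and 1 lower at an unadjusted p under 0.05.

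The 11 genes listed as replication-independent histone genes lie outside the clusters, and the 3′ ends of their mRNAs were not examined. Their summed level was 1276 to 1405 CPM in VAS + H2O and 1427 to 1530 CPM in the 6 IMQ libraries, many times that of the clustered genes. H2afx, the variant phosphorylated at DNA breaks, rose by a log2 fold change of 1.18 (adjusted p = 0.0184, edgeR) in IMQ + H2O and was the 1 called gene. H2afz, the variant H2A.Z, and H2afy, macroH2A1, passed the adjusted p alone with 0.86 and 0.34 (adjusted p = 0.0109 and 0.0433, edgeR), and H2afv had -0.76 (adjusted p = 0.0724, edgeR). In IMQ + XYF against IMQ + H2O 0 of the 11 were called by edgeR or DESeq2, with 2 higher and 1 lower at an unadjusted p under 0.05. At that threshold 3.84% of all genes tested were higher and 1.58% lower.

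RNAs that carry no poly(A) tail were read as a check of the poly(A) state, and they differed between the groups. The 16 listed genes summed to 9.83, 12.2 and 11.7 CPM in VAS + H2O, 36.6, 40.3 and 17.4 CPM in IMQ + H2O and 29.6, 15.1 and 17.9 CPM in IMQ + XYF, so all IMQ libraries were higher, and Rnu11 was at 0 throughout. Of 7 tested, 4 were called higher in IMQ + H2O by edgeR, against 3.64% of all genes tested, and 3 by DESeq2. The 7SL RNA genes Rn7s1 and Rn7s2 rose by log2 fold changes of 1.69 and 1.70, near-identical copies whose counts are uncertain one by one, Rn7sk, the 7SK RNA, by 1.17 and the small nucleolar RNA Snord17 by 1.53 (adjusted p = 0.0234 to 0.0454, edgeR). Snord17 had means of 0.104 CPM in VAS + H2O and 0.311 CPM in IMQ + H2O. It passed the filter only through IMQ + H2O, where it was higher, so its call is no result. In IMQ + XYF against VAS + H2O edgeR called 0 of 5 tested, with 3 higher at an unadjusted p under 0.05, as 22% of all genes were (19.3% lower, 41.3% in both directions), and DESeq2 called 2 of 6. Within IMQ + H2O these sums were highest in replicates 1 and 2, and Hist1h2bj and Hist1h3c in replicate 3. Within IMQ + XYF these sums, Hist1h2bj and Hist1h3c were all highest in replicate 1. The 33 members with the stem-loop and no poly(A) signal summed to 14.6, 12.4 and 12.2 CPM in VAS + H2O, 10.9, 10.1 and 12.3 CPM in IMQ + H2O and 12.4, 11.96 and 10.995 CPM in IMQ + XYF, with overlap. Without Hist2h2aa1, left out after its values were seen, the direction turned, with 8.84, 6.76 and 8.11 CPM in VAS + H2O and the same values in the IMQ groups. Members with a poly(A) signal, without Hist1h1c, Hist3h2a and Hist2h2be, summed to 4.67 ± 1.68, 8.04 ± 0.979 and 6.53 ± 0.670 CPM (SD, n = 3 each), and all 16 of them to 50.1 ± 9.80, 47.8 ± 8.34 and 44.3 ± 2.83 CPM. Without those 3, replicate 1 of VAS + H2O (6.58 CPM) overlapped with IMQ + XYF but not with IMQ + H2O. The smaller sum still holds Hist1h4i and Hist2h3c1, which lies in the chromosome 3 block with Hist2h2aa1. The part of residual RNA without a poly(A) tail in these levels was not tested.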

How the data were processed

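The deposited table gives whole-number counts per gene and library, without normalization, for 9 epidermal libraries. According to the methods and the submitters' processing notes, the authors aligned reads of TruSeq libraries with STAR (2.5) to GRCm38. The tool and strand setting of the counting are not given in the sources used here. Groups were taken from the labels. Each pair of groups was fitted on its 6 libraries with edgeR 4.0.16 (R 4.3.3; TMM, filterByExpr, quasi-likelihood test), and p-values were adjusted over all genes tested. DESeq2 1.42.0, other filters and scalings, a replicate block and each library left out were alternatives. CPM values use TMM factors. Libraries of a group differed by more than counting noise. Standard errors are the fold change over the square root of F. The fit was tested on counts simulated with a common dispersion, with changes set only in genes above a minimum mean count. That test does not extend to members with fewer counts.

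Members and lists were chosen with earlier results of these data known. Named members were those called in any comparison, the 3 highest per kb of each class, and those sharing a coding sequence with them, used in place of the protein sequence. Of each list, up to 4 genes with the smallest adjusted p were named, and 1 of these is not reported here. Lengths, ends and windows came from GENCODE M21, and promoters from RefSeq.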

Additional observations from a re-analysis of the deposited data

How the results depend on the processing

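With at least 10 counts in every library, 1 member was called in IMQ + H2O against VAS + H2O (Hist1h4i) in place of 4, and 0 in IMQ + XYF against VAS + H2O in place of 4, because the other called members were then not tested. Leaving out 1 library gave 2 to 4 calls in the first comparison, with 2 without replicate 2 of VAS + H2O or replicate 3 of IMQ + H2O, and 3 to 4 in the third. No alternative called a member in IMQ + XYF against IMQ + H2O. The adjusted p alone called 4, 0 and 6 members in the 3 comparisons. Without Hist1h1c the family summed to 50.01 CPM under VAS + H2O, 49.5 CPM under IMQ + H2O and 48.6 CPM under IMQ + XYF. Same-numbered libraries did not deviate together (correlations of -0.13 to 0.11), so the numbers were not taken as pairs. The replicate block gave 3, 0 and 4 calls, with Hist1h4i lost in the first comparison (adjusted p = 0.0867, edgeR) and Hist1h2ag called in place of Hist1h4m in the third. Among single named members, 552 values kept their side of the threshold, 20 lost it and 7 gained it, and 0 called values changed sign. Over all genes, the first comparison had 1383 calls, 3986 by adjusted p alone and 711 to 1314 with 1 library left out. The second had 5, against 129 with DESeq2, 1 with all 9 libraries in 1 fit, 0 with the block and 0 to 5 with 1 library left out. The third had 1371, against 5152 by adjusted p alone. The causes were not tested. Summing members of identical protein was not run, since no protein sequences were at hand, and identical coding sequences were summed instead, with 4, 0 and 4 calls, of which 1 in the third comparison is the sum of Hist1h2ao and Hist1h2ap, whose equal counts may hold the same reads. That alternative, and the sums over the chromosome 3 block, were chosen after seeing the data. Depth limits the rest, since 5 of 27, 6 of 31 and 6 of 28 tested members had a standard error of at most 0.3 on the log2 scale.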
